A study of Mus musculus with 6 samples.

Results

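*Lgals3* (galectin-3) was followed with *Lgals1* (galectin-1), *Spp1* (osteopontin), *Gpnmb*, *Trem2* and *Fabp5*, genes of repair macrophages, in single cells of the tibialis anterior muscle (TAM) of control and hypothyroid mice. They are 6 of the 12436 genes listed in the files. *Lgals3* was chosen by its measured level over all cells, which was higher in the hypothyroid library at each of the 3 time points, so that pattern is given as a description. The other 5 are genes known to accompany it in macrophages, and the set was chosen with earlier results of these data known. Single-cell RNA sequencing was done on whole TAM, with 1 library for each of 6 groups: control or hypothyroid, uninjured (day 0) or 5 or 14 days after injury (dpi). All mice were males aged 3 to 5 months on a mixed B6;129 background that carried the Fucci2aR reporter at the Gt(ROSA)26Sor locus, taken without the *Pax7*-Cre driver, so that no group expressed the cell cycle reporter through it. Hypothyroid mice received a low-iodine diet with 0.15% propylthiouracil (PTU, which blocks the synthesis of thyroid hormone) for 3 weeks before injury and from then on, whereas control mice received the matched diet, and injury was made with cardiotoxin (CTX, 50 µg/mL), a snake venom peptide that lyses myofibers, in the right TAM. Each library pooled the muscles of 3 mice, which limits every comparison: the mice cannot be told apart, no difference between diets or days was tested, and each interval given below covers counting error only.

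Galectins are secreted lectins that bind β-galactosides on cell surfaces and matrix, and galectin-3 is abundant in macrophages that clear debris. Osteopontin is a secreted phosphoprotein that binds integrins and CD44. TREM2 is a receptor for lipids and apoptotic material that signals through the adaptor TYROBP, GPNMB is a transmembrane glycoprotein of phagocytic cells, and FABP5 is a cytosolic carrier of fatty acids. After muscle injury, monocytes enter the tissue, turn into macrophages that engulf dead fibers, and later support the muscle stem cells and fibro-adipogenic progenitors (FAPs) that rebuild it.

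The genes lie on separate chromosomes of the mouse genome (GRCm39, as the files annotate it): *Lgals3* at chr14:47605208-47623618, *Lgals1* at chr15:78810925-78814666, *Spp1* at chr5:104582984-104588917, *Gpnmb* at chr6:49013480-49047864, *Trem2* at chr17:48653429-48661176 and *Fabp5* at chr3:10077608-10081668, all protein coding. Promoter windows of 250 bases before the RefSeq start site (table of GRCm38.p6, placed on GRCm39 by a single exact match, plus strand) were held for 4 of the 6 members, *Lgals3*, *Spp1*, *Gpnmb* and *Trem2*, and are shown because these members moved by different amounts in the same cells. Capitals mark the letters of 2 motifs linked to macrophage factors. One is the PU.1 core (GAGGAAG, read as CTTCCTC where it lies on the other strand). The other is a loose form of the AP-1 site that allows any central base (TGANTCA). The *Lgals3* window, chr14:47611067-47611316, lies inside the gene as the files annotate it. The *Spp1* window is chr5:104582727-104582976, the *Gpnmb* window chr6:49013202-49013451 and the *Trem2* window chr17:48653179-48653428.
Lgals3: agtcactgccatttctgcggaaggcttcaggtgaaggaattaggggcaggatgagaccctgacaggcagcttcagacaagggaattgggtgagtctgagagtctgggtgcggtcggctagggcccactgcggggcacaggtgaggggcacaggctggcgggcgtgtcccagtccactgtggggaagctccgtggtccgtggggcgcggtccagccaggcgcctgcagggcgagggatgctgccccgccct
Spp1: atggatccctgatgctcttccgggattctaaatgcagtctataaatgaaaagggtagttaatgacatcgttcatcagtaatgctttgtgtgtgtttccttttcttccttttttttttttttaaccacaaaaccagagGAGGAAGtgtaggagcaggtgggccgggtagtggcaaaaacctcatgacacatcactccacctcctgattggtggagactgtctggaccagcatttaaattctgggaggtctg
Gpnmb: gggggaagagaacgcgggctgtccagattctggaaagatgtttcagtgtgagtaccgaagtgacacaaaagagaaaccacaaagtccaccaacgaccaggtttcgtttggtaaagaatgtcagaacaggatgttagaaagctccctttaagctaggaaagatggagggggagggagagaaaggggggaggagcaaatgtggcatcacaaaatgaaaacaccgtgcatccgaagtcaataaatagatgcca
Trem2: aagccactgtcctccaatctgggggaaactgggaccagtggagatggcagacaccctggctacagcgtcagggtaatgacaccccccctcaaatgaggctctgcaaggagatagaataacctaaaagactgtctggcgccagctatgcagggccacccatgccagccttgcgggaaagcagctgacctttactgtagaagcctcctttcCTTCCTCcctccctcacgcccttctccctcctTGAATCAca
The *Trem2* window held a TGAATCA, a match to the loose AP-1 form only, whose first base stood 9 bases before the start. It held the PU.1 core on the minus strand 41 bases before the start. The *Spp1* window held the PU.1 core on the plus strand 113 bases before the start. The *Lgals3* and *Gpnmb* windows, and the window of a further *Spp1* start (chr5:104583808-104584057), held neither motif, and no window held the E-box CACGTG or the M-box TCATGTG on either strand. Of all 32851 mouse windows of that length, 10.6% held the PU.1 core, 6.75% the loose AP-1 form, 6.02% the E-box and 3.25% the M-box, so these matches are a description of the letters and not of binding.

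The deposited columns call for care before any value is read. Of 20269 cell columns, 11207 stand in the first run of alphabetically ordered barcodes of their file and were used. That run was assumed to be the labelled library, which was not tested. The other 9062 were treated as of unknown condition, since 1680 cells recur in files of different conditions. For the uninjured and day 5 libraries, the cell counts printed in the paper lie within a few cells of all columns of the file. There the first run holds 1152 of 2304 and 2428 of 4855 control columns, and 528 of 1056 and 2155 of 4309 hypothyroid columns. For day 14 the printed counts exceed all columns of the file, where the first run holds 3294 of 6095 control and 1650 of 1650 hypothyroid columns. In all 6 libraries the printed count is far above the first run. The main values, those of day 14 included, may thus rest on only part of each published library, which was not tested. No recurring cell stood in the first runs of 2 files, and the first runs shared 12 barcodes. The libraries then held 528 to 3294 cells and 2283954 to 23497545 UMIs (unique molecular identifiers, each standing for a captured RNA molecule). The median cell held 4589, 3847 and 3979.5 UMIs in the control libraries of days 0, 5 and 14, and 3634, 8055 and 6864.5 in the hypothyroid libraries, so depth per cell moved with diet after injury. Its part in the levels was not tested, and shares of cells with a UMI are also given after each cell was thinned to 1000 UMIs.

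Cells were assigned by 8 marker genes per class, none of them a member. The macrophage label held on those markers: *Lyz2* (lysozyme) stood at 8612 CPM (counts per 1000000 UMIs of a pool) in 1178 monocyte/macrophage-like cells, in 86.9% of them, against 62.4 CPM in FAP-like and 19.0 CPM in T/NK-like cells. *Cd68* stood at 806 CPM against 7.79 and 7.63 CPM. Of markers of other classes, *Cd3e* had a UMI in 0.594% of macrophage-like cells and *Col1a1* in 20.4%, so that the median cell held none of either. Macrophage-like cells made up 2 of 1152, 336 of 2428 and 91 of 3294 control cells on days 0, 5 and 14, which is 0.174%, 13.8% and 2.76%. In the hypothyroid libraries they made up 8 of 528, 611 of 2155 and 130 of 1650 cells, or 1.52%, 28.4% and 7.88%. At day 0 the class fell under the 20 cells required in each pool and was not compared.

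Summed over the libraries, most UMIs of every member but *Lgals1* lay in macrophage-like cells, though not in each library. Over all 6 libraries, macrophage-like cells held 94.7% of the *Trem2*, 91.2% of the *Gpnmb*, 82.9% of the *Fabp5* and 77.4% of the *Lgals3* UMIs, though they were 10.5% of the cells. They held 59.6% of the *Spp1* UMIs, with 27.3% in FAP-like and 7.68% in myogenic progenitor-like cells. *Lgals1* differed from the rest: 66.7% of its UMIs lay in FAP-like, 11.5% in macrophage-like and 10.8% in myogenic progenitor-like cells. In the control library of day 14, with 91 macrophage-like cells, these held 85.2% of the *Trem2* and 52.1% of the *Lgals3* UMIs but 21.2% of the *Spp1*, 16.3% of the *Gpnmb* and 11.1% of the *Fabp5* UMIs. There FAP-like cells held 54.2% of the *Spp1* and 76.7% of the *Gpnmb* UMIs, and endothelial-like cells 67.7% of the *Fabp5* UMIs. At rest, FAP-like cells of the control held 97.9% of the *Gpnmb* UMIs.

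*Lgals3* stood at 54.1, 794 and 259 CPM over all control cells on days 0, 5 and 14, and at 308, 2393 and 1181 CPM over all hypothyroid cells. Both diets had the peak on day 5, and the hypothyroid pool was the higher one on each day, which is the pattern that chose the gene. The ratios of hypothyroid to control were 5.69 (95% interval 4.98 to 6.51) on day 0, 3.02 (2.96 to 3.08) on day 5 and 4.56 (4.41 to 4.72) on day 14. At least 2-fold higher were 4.44%, 3.62% and 4.32% of genes on the single days, and 15 of 11279 genes, 0.133%, were so on all 3 days. Since these values chose the gene, the shares are background and nothing is read from them.

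Of the other members, *Spp1* and *Fabp5* were also higher over all cells of the hypothyroid library on each day, whereas *Lgals1* and *Gpnmb* were lower on day 0 and higher later. *Lgals1* stood at 529, 1351 and 762 CPM in controls and at 372, 3105 and 1006 CPM in hypothyroid libraries on days 0, 5 and 14, and *Spp1* at 31.2, 1670.0 and 16.03 CPM and at 145, 2159 and 95.5 CPM. *Gpnmb* stood at 24.1, 160 and 26.9 CPM and at 16.6, 442 and 183 CPM, and *Fabp5* at 15.3, 649 and 116 CPM and at 24.96, 1709 and 328 CPM. *Trem2* stood at 55.8 and 314 CPM on day 5 and at 6.56 and 98.4 CPM on day 14, and had 1 control and 5 hypothyroid UMIs on day 0. At least 2-fold higher in the hypothyroid library were *Lgals3* and *Spp1* on day 0, all members but *Spp1* on day 5, and all but *Lgals1* on day 14, against 4.44%, 3.62% and 4.32% of genes, while *Lgals1* and *Gpnmb* were lower than the control on day 0, at ratios of 0.703 (0.651 to 0.759) and 0.690 (0.469 to 0.993). The day 0 values depended on few cells and on the setting. Of the *Spp1* UMIs of day 0, 280 of 331 lay in the 8 hypothyroid macrophage-like cells, and its ratio of 4.65 became 0.405 under the cell filter printed in the study and 0.997 as a difference of mean log2 values. With all columns the *Lgals1* and *Gpnmb* ratios of day 0 became 1.19 and 1.16, and the *Fabp5* ratio of 1.63 became 0.798 after thinning.

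The make-up of the libraries moved with the *Lgals3* difference. With each class held at its control share of UMIs, the *Lgals3* ratios became 1.73, 2.17 and 1.89 on days 0, 5 and 14, and with control levels and hypothyroid class shares they were 4.91, 1.49 and 2.56. The day 0 value rested on 703 hypothyroid and 321 control UMIs, of which 79.8% and 42.4% lay in the 8 and 2 macrophage-like cells. With all columns of each file, whose condition is not known for the later runs, the day 0 ratio was 0.885, and under the cell filter printed in the study it was 1.73.

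**Figure D1:**
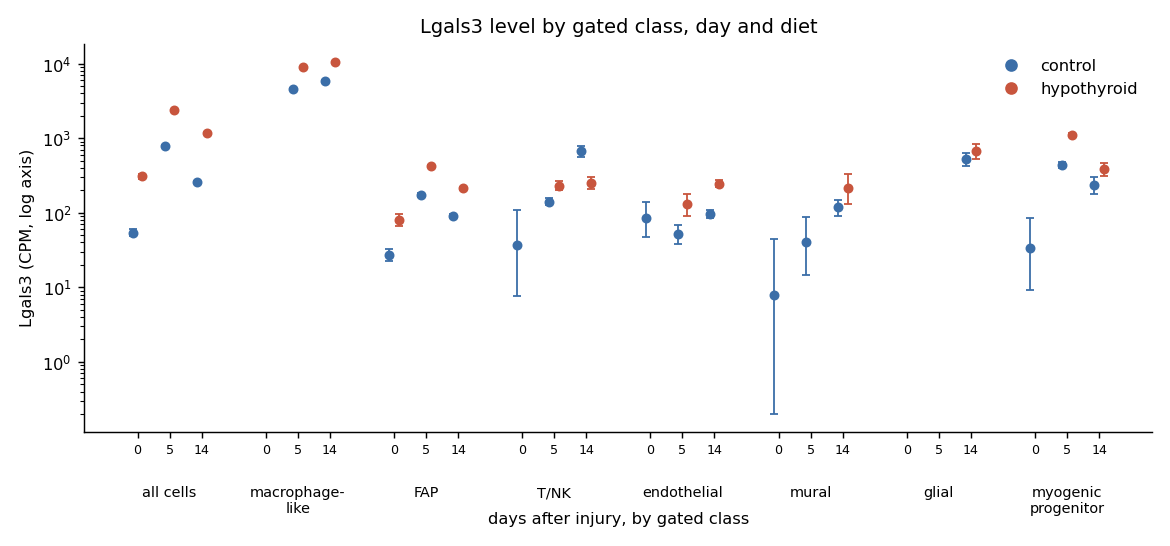
*Lgals3* level in CPM (log axis) over all cells and in 7 cell classes, with days 0, 5 and 14 side by side within each class, control and hypothyroid pools as points and exact Poisson 95% intervals as bars; pools with no UMI or fewer than 20 cells are not drawn. Macrophage-like cells lie highest, at 4630.0 to 10473 CPM, and the other classes drawn lie at or below 1112 CPM.

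Within macrophage-like cells *Lgals3* stood at 4630.0 CPM (4534 to 4728) in the control and 8918 CPM (8836 to 9001) in the hypothyroid pool on day 5. On day 14 it stood at 5843 CPM (5602 to 6091) and 10473 CPM (10290 to 10659). The hypothyroid pool was higher on both days, by 1.93-fold (1.88 to 1.97) and 1.79-fold (1.71 to 1.88), and the counting intervals did not overlap. Single cells overlapped widely. The lowest cell held no *Lgals3* UMI in any of the 4 pools, the median cells stood at 2596 and 6860.2 CPM on day 5 and at 4117 and 6234 CPM on day 14, and the highest at 23519, 27762, 19147 and 27098 CPM in the order control and hypothyroid of day 5, then of day 14. On day 14 the ratio was 1.22 under the study cell filter and 1.18 with all columns, which keep other cells, and 4.17 as a difference of mean log2 values over the same cells.

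The share of macrophage-like cells with a *Lgals3* UMI was 93.8% (exact Clopper-Pearson interval 90.6 to 96.1) against 95.9% (94.0 to 97.3) on day 5, at medians of 4963 and 6559 UMIs per cell. T/NK-like cells, given beside them although they are not a class free of the transcript, had a UMI in 20% and 37.2% of cells at medians of 2883 and 3481 UMIs. After thinning to 1000 UMIs the macrophage shares were 78.5% and 90.8%, and the T/NK shares 7.91% and 14.7%. On day 14 the thinned macrophage shares were 85.5% and 95.3%. Nearly every macrophage-like cell thus held the transcript in both diets, and the diets differed in its level per cell more than in the share of cells with it.

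Other classes held less *Lgals3*, and the order of the lowest among them was set by few UMIs. In the control library of day 5 neutrophil-like cells, the first leukocytes to enter injured muscle, followed at 834 CPM (708 to 977) and myogenic progenitor-like cells at 432 CPM (394 to 473). Then came FAP-like cells at 174 CPM (164 to 185), T/NK-like at 141 CPM (127 to 156), B-like at 109 CPM (54.4 to 195), endothelial-like at 52.1 CPM (38.4 to 69.0) and mural-like cells at 40.4 CPM (14.8 to 87.9). Among these intervals, that of B-like cells overlapped with those of FAP-like, T/NK-like, endothelial-like and mural-like cells, and mural-like with endothelial-like cells. In the hypothyroid library the order of day 5 was 1112 CPM in myogenic progenitor-like, 423 CPM in FAP-like, 230 CPM in T/NK-like (199.6 to 264), 131 CPM in endothelial-like (91.5 to 181) and 120 CPM in B-like cells (57.5 to 221), and the last overlapped with both before it. Cells that passed the rule of no class held 620.3 and 1880.1 CPM on day 5, between the macrophage-like cells and most others.

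In FAP-like cells, the stromal progenitors that build matrix and fat, *Lgals3* stood at 27.3, 174 and 91.1 CPM in controls and at 80.0, 423 and 212 CPM in hypothyroid pools on days 0, 5 and 14. The hypothyroid level was higher on each day, by 2.93-fold (2.28 to 3.75), 2.43-fold (2.27 to 2.59) and 2.32-fold (2.15 to 2.51), and 3.43%, 3.41% and 1.63% of genes were at least 2-fold higher in these pools. Macrophage RNA moved with the result: 10 macrophage reference genes put it at 0.955% of FAP-like UMIs in the control and 1.63% in the hypothyroid library on day 5, and at 0.278% and 0.783% on day 14. The *Lgals3* level was 3.94 and 2.91 times what those shares would give on day 5, and 5.62 and 2.58 times on day 14. In FAP-like cells without any UMI of the reference genes the ratios were 3.00, 2.35 and 2.57. With the study cell filter they were 1.15 on day 5 and 1.58 on day 14, and with all columns 1.03 on day 0.

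Myogenic progenitor-like cells had 432 CPM in the control and 1112 CPM in the hypothyroid pool on day 5, a ratio of 2.57 (2.33 to 2.85) where 2.63% of genes were at least 2-fold higher. On day 14 they had 233 and 381 CPM over 42 and 26 cells, where 6.80% of genes reached 2-fold, and the ratio of 1.64 (1.17 to 2.30) turned to 0.808 after thinning. In endothelial-like cells the ratios were 2.51 (1.58 to 3.94) on day 5 and 2.54 (2.16 to 2.98) on day 14, where 4.87% and 2.40% of genes reached 2-fold. The 5 highest cells held 56.2% and 91.7% of the UMIs on day 5 and 73.7% and 59.0% on day 14, and the study cell filter turned both ratios, to 0.420 and 0.735. Macrophage RNA, by the same reference genes, was 0.814% and 2.29% of endothelial-like UMIs on day 5 and 0.636% and 1.66% on day 14 in control and hypothyroid libraries. The *Lgals3* level was 1.38 and 0.640 times what those shares would give on day 5, and 2.61 and 1.42 times on day 14. T/NK-like cells went different ways, with 141 and 230 CPM on day 5 (1.64, 1.37 to 1.95) and 673 and 251 CPM on day 14 (0.373, 0.291 to 0.480), where 2.73% of genes were at least 2-fold higher and 4.16% at least 2-fold lower. The day 5 levels were 0.541 and 0.792 times, and those of day 14 were 8.28 and 2.58 times, what the reference genes would give in these cells. On day 5 *Gpnmb* stood at 0.0164 and 0.0174 times and *Trem2* at 0.0305 and 0.0993 times the level reckoned that way, and the reference genes include *Fcer1g*, which NK cells also use, so that level is no measure of background for *Lgals3* in T/NK-like cells. The part of free RNA in their *Lgals3* was not tested.

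*Lgals1*, the other galectin of the set, stood at 842 CPM (801 to 884) and 1969 CPM (1931 to 2008) in control and hypothyroid macrophage-like cells on day 5, and at 816 CPM (728 to 912) and 1917 CPM (1838 to 1997) on day 14. The hypothyroid pool was more than 2-fold higher on both days, with ratios of 2.34 (2.22 to 2.47) and 2.35 (2.08 to 2.65). Under the alternatives run, the ratio lay between 2.14 and 5.29 on day 5 and between 1.32 and 2.64 on day 14. The share of thinned cells with a UMI was 36.6% against 65.1% on day 5 and 45.8% against 54.3% on day 14.

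In FAP-like cells *Lgals1* had 566, 2089.9 and 878 CPM in controls and 407, 3580.1 and 829 CPM in hypothyroid pools on days 0, 5 and 14. It was lower in the hypothyroid pool at rest (0.720, 0.661 to 0.784), higher on day 5 (1.71, 1.68 to 1.75) and close to the control on day 14 (0.945, 0.916 to 0.974). The day 0 ratio became 1.65 with all columns, and the day 14 ratio lay above 1 under 4 alternatives. Myogenic progenitor-like cells stood at 2716 and 4570.2 CPM on day 5 (1.68, 1.61 to 1.75) and at 1253 and 3557 CPM on day 14 (2.84, 2.495 to 3.24), although 5 cells held 80.4% and 66.9% of the day 14 UMIs. T/NK-like cells stood at 512 and 669 CPM on day 5 and at 1406 and 1493 CPM on day 14, with ratios of 1.31 (1.18 to 1.44) and 1.06 (0.924 to 1.22). These levels are over 10 times what the reference genes would give in each library, although that reckoning is no measure of background in T/NK-like cells.

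*Spp1* was the member whose pooled level hid the difference between cells. Macrophage-like cells held 6417 CPM (6303 to 6532) in the control and 6611 CPM (6540 to 6682) in the hypothyroid pool on day 5, a ratio of 1.03 (1.01 to 1.05). The 5 highest of 336 control cells held 59.4% of the *Spp1* UMIs, against 16.01% for the 5 highest of 611 hypothyroid cells, and the highest cell reached 105026 CPM in the control. The median cell held no UMI in the control pool and 1480 CPM in the hypothyroid pool. A UMI was present in 37.5% (32.3 to 42.9) of control and 76.9% (73.4 to 80.2) of hypothyroid cells, and in 26.0% and 63.8% after thinning, against 4.91% and 4.89% of thinned T/NK-like cells. As a difference of mean log2 values the ratio was 25.4, and with a stricter assignment of cells it was 0.957. *Spp1* thus stood at like pooled levels and in very different shares of cells.

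On day 14 *Spp1* stood at 147 CPM (111 to 191) in the control and 801 CPM (750 to 853) in the hypothyroid macrophage-like pool. The ratio was 5.43 (4.15 to 7.24), from 56 UMIs in 14 of 91 cells against 947 UMIs in 53 of 130 cells. Thinned shares were 7.23% and 25.2%. Under the alternatives run the ratio stayed between 1.29 and 8.53.

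In FAP-like cells *Spp1* stood at 9.04, 1708 and 13.1 CPM in controls and at 30.5, 750 and 19.1 CPM in hypothyroid pools. It was high on day 5 alone of the 3 days in both diets, and there it was lower in the hypothyroid pool, at 0.439 (0.428 to 0.451) of the control, where 10.5% of genes were at least 2-fold lower. The 5 highest of 467 control cells held 51.3% of these UMIs and the 5 highest of 921 hypothyroid cells 28.5%, and a UMI stood in 32.1% and 45.5% of cells. As a difference of mean log2 values the ratio was 1.93. On day 0 the ratio of 3.38 came from 50 and 44 UMIs, of which 5 cells held 100% and 86.4%. Myogenic progenitor-like cells held 1674 and 2065 CPM on day 5 (1.23, 1.17 to 1.30), and the ratio was 0.823 without cells that scored for a second class. On day 14 they held 0 UMIs in 42 control cells and 109 UMIs (412 CPM) in 26 hypothyroid cells. The lower bound of that ratio was 27.3, but 5 cells held 100% of these UMIs.

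*Gpnmb* stood at 1246 CPM (1197 to 1298) and 1976 CPM (1938 to 2015) in control and hypothyroid macrophage-like cells on day 5, and at 189.6 CPM (148 to 239) and 1747 CPM (1672 to 1824) on day 14. The hypothyroid pool was higher on both days, by 1.59-fold (1.52 to 1.66) and 9.21-fold (7.28 to 11.8). Under the alternatives the day 5 ratio lay between 1.47 and 20.7, the latter as a difference of mean log2 values. The control pool of day 14 rested on 72 UMIs in 12 of 91 cells, 5 of which held 84.7% of them, and the ratio there lay between 1.72 and 27.5 under the alternatives. A UMI was found in 20.2% against 52.7% of thinned cells on day 5 and in 9.64% against 37.8% on day 14, while T/NK-like cells had 0 of 632 and 1 of 184 on day 5. The 0 does not mean absence, as the 640 control T/NK-like cells held 3 *Gpnmb* UMIs before thinning.

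*Trem2* stood at 448 CPM (418 to 479) and 1388 CPM (1356 to 1421) in macrophage-like cells on day 5, and at 242 CPM (195 to 297) and 1003 CPM (946 to 1061) on day 14. It was 3.10-fold (2.89 to 3.33) and 4.14-fold (3.35 to 5.17) higher in the hypothyroid pools, and the day 5 ratio lay between 2.87 and, as a difference of mean log2 values, 36.2. It was found in 27.1% of control and 76.3% of hypothyroid cells on day 5, in 18.1% and 54.8% after thinning, and in 16.9% and 44.1% of thinned cells on day 14. T/NK-like cells had a UMI in 0.158% and 1.09% of thinned cells on day 5. The day 14 ratio was 2.28 under the study cell filter and 1.25 with all columns.

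*Fabp5* stood at 3837 CPM (3749 to 3926) and 7137 CPM (7063 to 7211) on day 5, and at 561 CPM (488 to 641) and 2825 CPM (2730 to 2922) on day 14. The hypothyroid pool was 1.86-fold (1.81 to 1.91) and 5.04-fold (4.38 to 5.81) higher. On day 5 the alternatives ran from 1.72 to 29.0, the latter as a difference of mean log2 values. Thinned shares were 31.1% and 69.9% on day 5, against 2.69% and 6.52% of T/NK-like cells, and 18.1% and 44.9% on day 14. Of the 213 control UMIs of day 14, 5 cells held 75.1%, and 5 hypothyroid cells held 48.5% of 3341, and the ratio of that day lay between 1.58 and 19.6 under the alternatives.

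Set against all genes, 2 of the 6 members (*Lgals1* and *Trem2*) were at least 2-fold higher in hypothyroid macrophage-like cells on day 5, where 8.04% of 9445 genes were. On day 14 it was 5 of 6, all but *Lgals3*, where 9.59% of 6155 genes were. No member was 2-fold lower, against 17.6% and 6.58% of genes. The median gene had a log2 ratio of −0.29 on day 5 and −0.03 on day 14, while the members had 0.95, 1.23, 0.04, 0.67, 1.63 and 0.90 on day 5 and 0.84, 1.23, 2.44, 3.20, 2.05 and 2.33 on day 14, in the order *Lgals3*, *Lgals1*, *Spp1*, *Gpnmb*, *Trem2*, *Fabp5*. Relative to the median gene, every member was thus higher in the hypothyroid pool on both days, *Spp1* on day 5 by the least. The set was chosen with earlier results of these data known, so the counts and shares are a description and nothing is read from them.

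**Figure D2:**
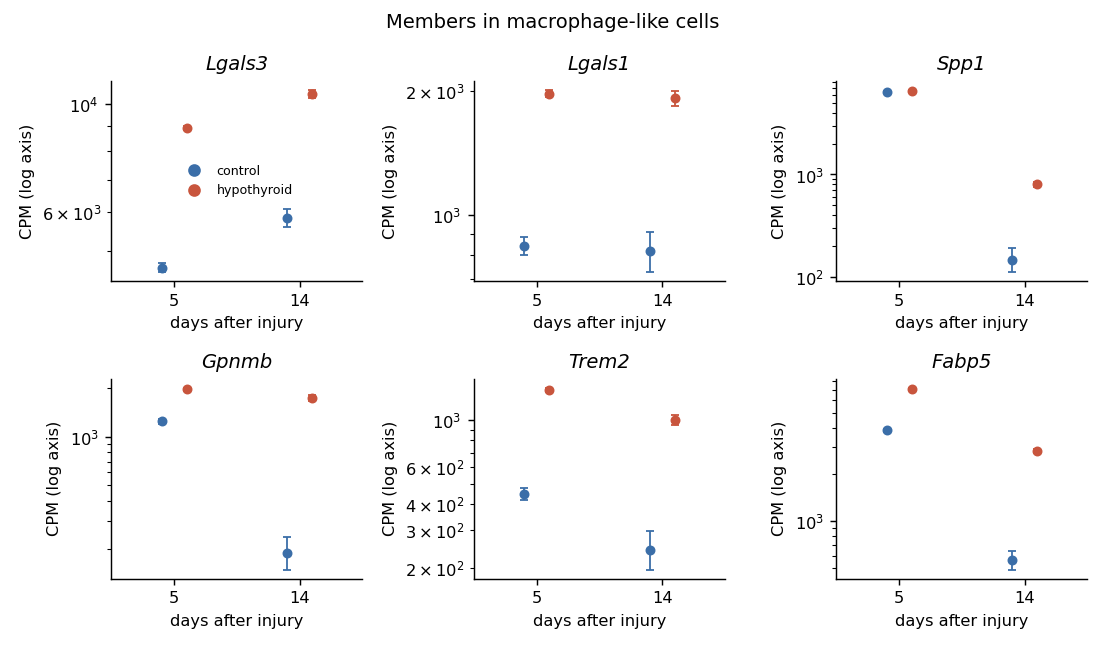
Level of each member in CPM (log axis, a scale of its own for each gene) in monocyte/macrophage-like cells on days 5 and 14, control and hypothyroid pools as points with exact Poisson 95% intervals. The diets nearly coincide for *Spp1* on day 5 (6417 and 6611 CPM) and lie farthest apart for *Gpnmb* on day 14 (189.6 and 1747 CPM).

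The members also differed in how they declined from day 5 to day 14 in macrophage-like cells. *Lgals3* was 1.26-fold (1.20 to 1.32) higher on day 14 than on day 5 in controls and 1.17-fold (1.15 to 1.20) higher in hypothyroid pools, and *Lgals1* stood at 0.969 and 0.973 of its day 5 level. The galectin levels of day 14 were thus above or within counting error of those of day 5 in both diets. *Spp1* went to 0.0230 of its day 5 level in controls and to 0.121 in hypothyroid pools, *Gpnmb* to 0.152 and 0.884, *Trem2* to 0.541 and 0.722, and *Fabp5* to 0.146 and 0.396. In all 4 the hypothyroid pool kept a larger part of its day 5 level than the control pool, with intervals that did not overlap, and *Gpnmb* in the hypothyroid pool was the closest of the 4 to its day 5 level. These ratios compare separate libraries of different mice.

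The make-up of the macrophages also differed between the libraries. Cells with a UMI of at least 2 of the 3 chains of C1q, the complement component that mature tissue macrophages make, were 95 of 336 in the control and 493 of 611 in the hypothyroid library, or 28.3% (23.5 to 33.4) and 80.7% (77.3 to 83.7). On day 14 they were 64 of 91 and 112 of 130, or 70.3% (59.8 to 79.5) and 86.2% (79.0 to 91.6). After thinning the shares were 21.8% and 73.6%, then 59.0% and 75.6%. C1q genes were not among the 8 markers that assigned the class, but the split was made on these cells, so the values below are a description.

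All 6 members were higher in C1q-positive than in C1q-negative cells on day 5 in both diets. In controls the ratio was 2.35 for *Lgals3*, 4.53 for *Lgals1*, 18.6 for *Spp1*, 19.6 for *Gpnmb*, 33.3 for *Trem2* and 14.9 for *Fabp5*. In the hypothyroid library it was 2.25, 4.54, 10.5, 8.12, 15.03 and 12.6 in that order. *Trem2* was low outside the C1q-positive cells, at 35.9 and 105 CPM in control and hypothyroid C1q-negative cells, whereas *Lgals3* stood at 3135 and 4269.9 CPM there. On day 14 the control *Lgals3* level was 5794 CPM in C1q-positive and 5937 CPM in C1q-negative cells, a ratio of 0.976 (0.894 to 1.07).

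Within C1q-positive cells of day 5 the diets differed by less than in all macrophage-like cells for every member but *Spp1*, and for 3 members in the other direction. *Spp1* differed by more, with a ratio of 1.03 in all macrophage-like cells. *Lgals3* stood at 7354 and 9624 CPM (1.31, 1.27 to 1.35), *Lgals1* at 1695 and 2195 CPM (1.29, 1.22 to 1.38) and *Trem2* at 1198 and 1582 CPM (1.32, 1.23 to 1.42), each somewhat higher in the hypothyroid pool. *Spp1* stood at 16496 and 7505 CPM (0.455, 0.445 to 0.465), *Gpnmb* at 3219 and 2234 CPM (0.694, 0.663 to 0.728) and *Fabp5* at 9648 and 8122 CPM (0.842, 0.820 to 0.865), each lower. These 3 did not keep that direction in every setting: as a difference of mean log2 values they were 2.39, 1.98 and 2.55, and *Fabp5* stood at 1.16 with all columns and under the study cell filter. On day 14 all 6 were higher in hypothyroid C1q-positive cells, by 1.84-, 1.74-, 4.09-, 5.44-, 2.86- and 3.75-fold for *Lgals3*, *Lgals1*, *Spp1*, *Gpnmb*, *Trem2* and *Fabp5*. The alternatives kept these above 1 but moved their size, to between 1.15 and 4.73, 1.15 and 1.80, 1.30 and 5.92, 1.35 and 21.1, 1.13 and 3.35, and 1.47 and 20.8 in that order, and each of the lowest values came with all columns except that of *Lgals1*, under the study cell filter.

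The C1q-negative cells of day 5 were divided by the level of 4 antigen presentation genes, which were MHC class II chains and the invariant chain *Cd74*. The cut was the median over C1q-negative macrophage-like cells of all libraries. *Lgals3* stood at 2096 and 3779 CPM in cells above it (1.80, 1.67 to 1.94, over 116 and 62 cells) and at 4168 and 5093 CPM in cells below it (1.22, 1.14 to 1.31, over 125 and 56 cells). *Lgals3* was therefore higher in the hypothyroid pool in each of the 3 macrophage subsets, and it was lowest in the subset high in MHC class II. *Trem2* had 68.4 and 266 CPM in the MHC II-low subset (3.89, 2.60 to 5.87) and 2 and 4 UMIs in the MHC II-high one. *Fabp5* stood at 226 and 497 CPM (2.20, 1.76 to 2.75) in the MHC II-high and at 1068 and 889.8 CPM (0.833, 0.712 to 0.972) in the MHC II-low cells.

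**Figure D3:**
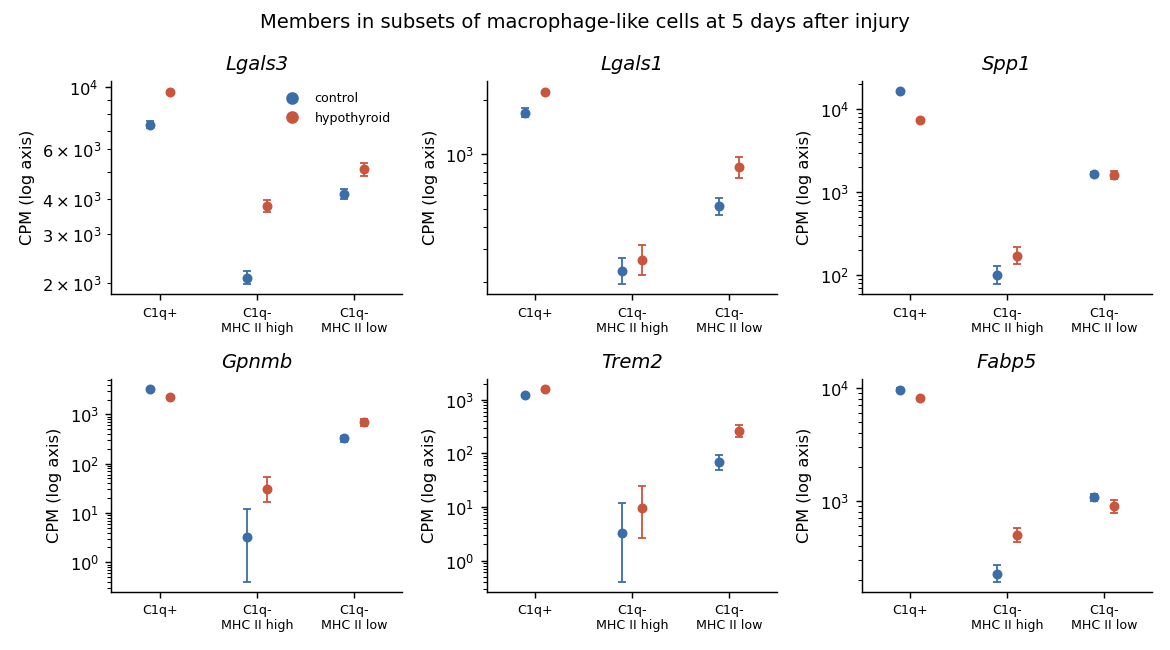
Level of each member in CPM (log axis, a scale of its own for each gene) on day 5 in 3 subsets of macrophage-like cells (C1q-positive, C1q-negative with high MHC class II and C1q-negative with low MHC class II), control and hypothyroid pools as points with exact Poisson 95% intervals. Every member is highest in the C1q-positive subset, and *Spp1* there is lower in the hypothyroid pool (7505 CPM) than in the control (16496 CPM).

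On day 5 the 4 members other than the galectins tended to be found in the same cells. Among cells thinned to 1000 UMIs on day 5, 29 of 331 control cells (8.76%) and 179 of 588 hypothyroid cells (30.4%) held a UMI of each of *Spp1*, *Gpnmb*, *Trem2* and *Fabp5*, while 54.7% and 15.99% held none. On day 14 all 4 were held by 0 of 83 control cells, which allows a share of up to 3.61%, and by 6 of 127 hypothyroid cells (4.72%), and none by 65.1% and 28.3%. The hypothyroid libraries therefore had more cells with several of the genes and fewer with none on both days.

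**Figure D4:**
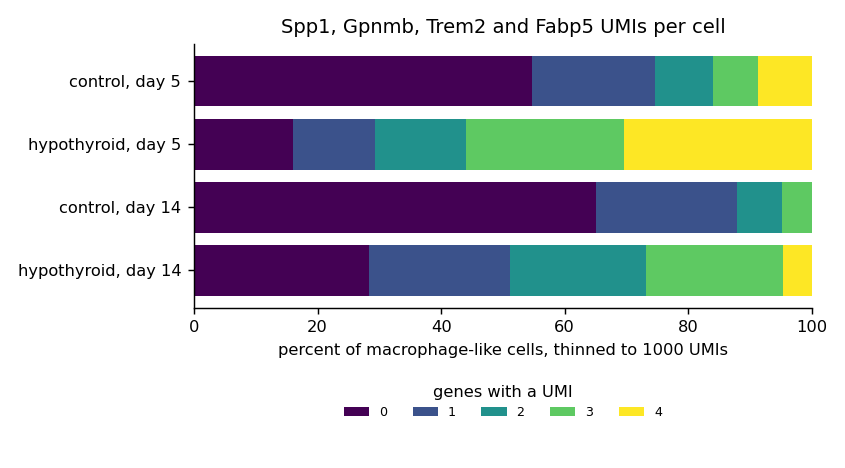
Percent of macrophage-like cells, each thinned to 1000 UMIs, that held a UMI of 0, 1, 2, 3 or 4 of *Spp1*, *Gpnmb*, *Trem2* and *Fabp5*, as stacked bars per library. The bar part with all 4 grows from 8.76% to 30.4% between the control and hypothyroid libraries of day 5 and is absent from the control library of day 14.

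In thinned control cells of day 5, *Gpnmb* was found in 61.7% (48.2 to 73.9) of cells with a *Trem2* UMI and in 11.1% (7.59 to 15.4) of cells without one. *Fabp5* was found in 76.7% and 21.0%, and *Spp1* in 70.0% and 16.2%. In the hypothyroid library the values were 69.3% and 32.7% for *Gpnmb*, 85.7% and 50.8% for *Fabp5*, and 80.1% and 44.0% for *Spp1*, so all 3 were also commoner among hypothyroid cells in which no *Trem2* was detected at this depth. Over single cells of day 5 the rank correlation between *Gpnmb* and *Fabp5* was 0.60 in 331 control and 0.58 in 588 hypothyroid cells, and between *Lgals3* and *Fabp5* 0.36 and 0.50. On day 14 the correlations among the 4 were lower, from −0.0187 (*Spp1* and *Fabp5*) to 0.409 (*Gpnmb* and *Trem2*) in 83 control cells and from 0.123 (*Spp1* and *Trem2*) to 0.408 (*Gpnmb* and *Fabp5*) in 127 hypothyroid cells. Cells of a library share its depth and free RNA, and these are descriptions.

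In FAP-like cells, *Trem2* and *Gpnmb* of day 5 stood at or below the level that the macrophage RNA counted there would give. *Trem2* had 0 UMIs in 839 control and 331 hypothyroid FAP-like cells on day 0, which allows up to 0.358% and 0.906% of cells with a UMI and does not limit the cells that express it below detection. On day 5 it stood at 0.950 and 18.6 CPM there, where the macrophage RNA of these cells would give 4.27 and 22.6 CPM. *Gpnmb* stood at 11.7 and 19.4 CPM in FAP-like cells on day 5 (1.66, 1.28 to 2.18), at 0.985 and 0.604 times the level from macrophage RNA. Without cells holding a macrophage reference UMI that ratio was 0.681 (0.393 to 1.18), from 29 UMIs in each pool. On days 0 and 14 *Gpnmb* stood at 28.8 and 31.0 CPM in controls and at 19.5 and 32.7 CPM in hypothyroid FAP-like cells. The day 14 ratio was 1.05 (0.897 to 1.23), and 0.696 (0.568 to 0.851) without cells holding a macrophage reference UMI. The levels of day 14 were 59.0 and 2.39 times that from macrophage RNA. *Fabp5* stood at 120 and 179 CPM there on day 5 (1.49, 1.37 to 1.62), with 0.873 without such cells.

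Endothelial-like cells, which take up fatty acids from blood, also held *Fabp5*. It stood at 190.3, 535 and 453 CPM in controls and at 358, 439 and 318 CPM in hypothyroid pools on days 0, 5 and 14. The hypothyroid level was lower on day 14, with a ratio of 0.701 (0.628 to 0.781) over 675 and 255 cells, and 0.701 again in cells free of macrophage reference UMIs. On day 5 the ratio was 0.821 (0.667 to 1.003), and on day 0, with 23 UMIs in 28 hypothyroid cells, 1.88 (1.06 to 3.29). In T/NK-like cells *Gpnmb* and *Trem2* had at most 4 UMIs in any library, and *Fabp5* was at 0.342 and 0.256 times the level from macrophage RNA on day 5. As for *Lgals3*, that level is no measure of background in T/NK-like cells, and the part of free RNA was not tested.

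**Figure D5:**
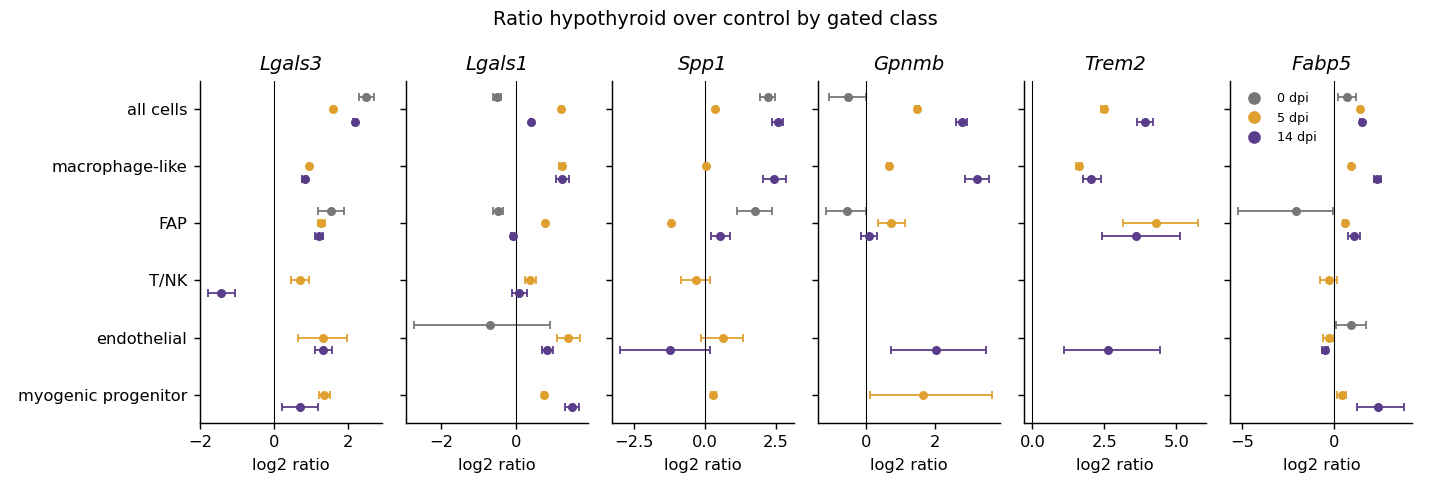
Log2 ratio of hypothyroid to control level of each member by cell class and day, with exact conditional 95% intervals as bars and a scale of its own for each gene, for pairs of pools with at least 20 UMIs and 20 cells each. *Lgals3* lies above 0 in macrophage-like, FAP-like and myogenic progenitor-like pools and below 0 in T/NK-like cells on day 14 (ratio 0.373), and *Fabp5* lies below 0 in endothelial-like cells on day 14 (ratio 0.701).

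The genes that act beside the members were read in macrophage-like cells from lists of known partners. Of all genes tested in these pools 8.04% were at least 2-fold higher and 17.6% lower on day 5, and 9.59% and 6.58% on day 14, around median ratios of 0.817 and 0.979. Of 5 genes listed around TREM2 signalling, 2 (*Hcst* and *Ms4a7*) were at least 2-fold higher on day 5 and 1 (*Hcst*) on day 14. On day 5, 1 was 2-fold lower, and the list's median ratio was 1.63 and 1.51. *Tyrobp*, the adaptor of the receptor, went from 1243 to 2024 CPM (1.63, 1.56 to 1.70) and from 1309 to 1976 CPM (1.51, 1.37 to 1.67). *Hcst*, the other adaptor of the list, stood at ratios of 2.06 and 2.27. *Ms4a7* stood at 3.06 and 1.81, but it is a membrane protein of mature macrophages and also a macrophage reference gene, so its call is not read as one of the pathway. The kinase *Syk* stood at 0.717 and 0.697 of the control and the phospholipase *Plcg2* at 0.497 and 0.864. On day 5 both adaptors stood above 1 and both enzymes below it, but the median gene also stood below 1, at 0.817, and the interval of *Syk*, 0.637 to 0.809, came close to that value.

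Of 15 genes by which macrophages handle lipids and lysosomal cargo, 5 were at least 2-fold higher on each day, 0 were lower on day 5 and 1 on day 14, and the list's median ratio was 1.66 and 1.55, beside 0.817 and 0.979 for all genes tested. *Apoe*, the lipoprotein that carries lipid out of macrophages, went from 4735 to 20596 CPM on day 5 (4.35, 4.26 to 4.44) and from 15232 to 25894 CPM on day 14 (1.70, 1.65 to 1.75). *Fabp4*, a fatty acid carrier like *Fabp5*, stood at 3.45 and 3.16, and the lysosomal protease *Ctsl* at 2.23 and 3.57. *Fabp3*, another such carrier, stood at 2.78 on day 5 but was the 1 gene lower on day 14, at 0.476 (0.296 to 0.777). *Cd36* stood at 1.81 and 0.958. *Lpl*, the lipase that frees fatty acids, stood at 1.80 and 2.49. *Lipa*, the lysosomal acid lipase, went the other way, at 0.564 (0.525 to 0.606) on day 5 and 0.911 on day 14.

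Of 7 receptor genes for osteopontin measured on day 5 none was 2-fold higher and 2 were 2-fold lower, where 8.04% and 17.6% of all genes were, and of 6 on day 14 it was 1 and 0, where 9.59% and 6.58% were. Their median ratio was 1.03 and 0.923, beside 0.817 and 0.979 for all genes. *Cd44* stood at 0.730 and 0.742 of the control, and the integrin chain *Itga4*, which monocytes use to leave the blood, at 197 CPM in the control and 29.7 CPM in the hypothyroid pool on day 5 (0.151, 0.124 to 0.183). *Itgb5* stood at 1.12 and 2.01. Of 8 further genes, galectins and the galectin-3 binding protein, 5 were listed and 3 had at least 20 UMIs, of which 0 and 1 were at least 2-fold higher: *Lgals3bp* at 1.40 and 2.27, *Lgals9* at 1.22 and 1.98, and *Lgals8* at 0.626 and 0.844. Of the 3 MiT/TFE factors, regulators of lysosomal genes such as *Gpnmb*, none was 2-fold higher and 1 was 2-fold lower on each day, with *Mitf* at 0.867 and 1.16, *Tfe3* at 0.481 and 0.687, and *Tfeb* at 0.684 and 0.462.

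Of 15 repair macrophage genes 14 were listed, and they differed in direction. On day 5, 4 of 14 were at least 2-fold higher and 1 lower, where 8.04% and 17.6% of all genes were, and on day 14, 3 of 13 were higher and 3 lower, where 9.59% and 6.58% were. The list's median ratio was 1.53 and 0.915, beside 0.817 and 0.979 for all genes. *Mmp12*, the macrophage elastase, was 4.01-fold (3.44 to 4.69) and 13.9-fold (10.6 to 18.7) higher, and *Anxa1*, an annexin that aids resolution of inflammation, 2.76- and 3.75-fold. The heme oxygenase *Hmox1* was lower on both days, at 0.310 and 0.516. *Il10*, an anti-inflammatory cytokine, stood at 5.58 on day 5 and 0.466 on day 14, from 26 and 386 and then 31 and 45 UMIs. *Gas6* and *Mrc1* stood above the control on day 5, at 1.55 (1.23 to 1.96) and 1.51 (1.22 to 1.88), and below it on day 14, at 0.453 and 0.710. *Pparg* stood at 0.702 (0.443 to 1.13) and 0.264, the latter from 17 and 14 UMIs.

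Across 41 pools of a class and a library with at least 20 cells, each member had its own nearest genes by Pearson correlation of log2(CPM + 1). Nearest to *Lgals3* were *Lyz2* (r = 0.808), *Ftl1-ps1* (0.785) and *Basp1* (0.779). Nearest to *Trem2* were *C1qc* (0.915), *C1qb* (0.907) and *Fcrls* (0.893), and nearest to *Gpnmb* were *C1qc* (0.861), *Folr2* (0.857) and *Fcrls* (0.821). Nearest to *Lgals1* were *Anxa1* (0.814), *Timp1* (0.777) and *Sec61g* (0.765), and nearest to *Spp1* were *Arf5* (0.737), *Nrg1* (0.735) and *Prdx1* (0.735). Nearest to *Fabp5* were *Cxcl16* (0.847), *Sem1* (0.800) and *Cyfip1* (0.795). Among the members themselves, *Gpnmb* and *Trem2* were the closest pair (0.817), and *Lgals1* and *Trem2* the most distant (0.331). By Spearman correlation, *Lyz2*, *Anxa1*, *Sec61g*, *Prdx1*, *Folr2* and *C1qb* were again among the 3 nearest of their member, and none of those of *Fabp5* was. Pools of a library share its mice and depth, and the correlations are descriptions.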

How the data were processed

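Cells of the digested muscles were captured with the 10x Genomics V3 3′ chemistry. Per the labels and the methods, the authors aligned reads in Partek Flow 11.0 with the Cell Ranger Gene Expression aligner to mm39 and counted them on GENCODE release M30. The deposited values are log2(CPM + 1) per gene and cell, by the authors. In each cell the commonest nonzero value was taken as 1 UMI to recover counts, which made 99.934% of 39334018 values whole within 0.05. The study states a limit of 8000 UMIs and a minimum of 500 genes per cell, whereas deposited cells hold 479 to 49807 UMIs, so all cells of the first runs were kept and that filter was an alternative.

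A cell joined the class with the highest mean marker score (at least 0.15, and 0.05 above the next), which left 1104 of 11207 cells without a class, and 460 cells lay within 0.02 of the margin. No doublet caller was run, and 1024 cells that scored over 0.25 for another class (72 macrophage-like) were left out in an alternative. UMIs were summed per class and library and divided by the summed total, so CPM weights cells by depth. Levels have exact Poisson, ratios exact conditional binomial and shares Clopper-Pearson intervals (95%), which cover counting error only. A share of 0 allows up to 3 counts of its total. With 1 pool of 3 mice in each group there was no test. Ratios were calculated for all genes with at least 20 UMIs in the paired pools, and 2-fold marked a gene as higher or lower. Genes named outside the members came from partner lists or were the 3 nearest to each member by Pearson r. The members and lists were chosen with earlier results of these data known, and the class rule, the C1q split and the doublet alternative were set after the files were seen. Simulated macrophage-like pools were drawn from the Poisson counts that the intervals assume, so coverage near 95% was built in. They hold no spread between cells or mice. On day 5 (9445 genes), 100% of genes simulated 2-fold higher and 94% of those 2-fold lower fell on the right side of 1. The intervals left out 1 for 88% and 71% of them. On day 14 (6155 genes) 96% of each fell on the right side, and the intervals left out 1 for 70% and 53%. The true ratio lay in 96.0% and 96.3% of the intervals of days 5 and 14. Python 3.11.15, numpy 2.4.6, scipy 1.17.1, pandas 2.3.3, leidenalg 0.10.2 and matplotlib 3.10.9 were used. The 9062 later-run columns entered no main value.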

Additional observations from a re-analysis of the deposited data

Results flagged for a closer look

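Some ratios of hypothyroid to control pointed one way on one day and the other way on another, beyond their counting intervals. With 1 library per group the difference between days was not tested in any of them. In C1q-positive macrophage-like cells, *Spp1* stood at 0.455 on day 5 and 4.09 on day 14, *Gpnmb* at 0.694 and 5.44, and *Fabp5* at 0.842 and 3.75. In FAP-like cells *Spp1* stood at 3.38, 0.439 and 1.47 on days 0, 5 and 14, *Lgals1* at 0.720, 1.71 and 0.945, and *Fabp5* at 0.238, 1.49 and 2.09, the first from 2 hypothyroid and 25 control UMIs. *Fabp5* in endothelial-like cells stood at 1.88 on day 0 and 0.701 on day 14, and *Lgals3* in T/NK-like cells at 1.64 on day 5 and 0.373 on day 14. Over all cells *Gpnmb* stood at 0.690, 2.77 and 6.81 on days 0, 5 and 14, and *Lgals1* at 0.703, 2.30 and 1.32.

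The columns after the first run of each file, used in no main comparison because their condition was treated as unknown, also held *Lgals3*. Its level there was 1107 CPM in the file of control day 0, 251 CPM in that of control day 5, 849 CPM in that of control day 14, 818 CPM in that of hypothyroid day 0 and 743 CPM in that of hypothyroid day 5. The first runs of the same files stood at 54.1, 794, 259, 308 and 2393 CPM, so in 3 of the 5 files the later columns were the higher ones. Within their macrophage-like cells *Lgals3* stood between 4246 and 10445 CPM.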

How the results depend on the processing

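No paired analysis was possible because each group had 1 library and the labels give no replicate numbers. Of 994 ratios recomputed under another setting, 558 stayed inside the interval of the value reported, 398 moved out of it and 38 reversed. Only ratios whose reported interval left out 1 could count as reversed. Some of the 398 therefore also crossed 1, from an interval that held it. *Gpnmb* in FAP-like cells on day 14 went that way, from 1.05 to 0.696 without cells holding a macrophage reference UMI. The cause was not tested. The looser margin and the mean over cells of CPM reversed none of theirs. Values rest on 1 pool of 3 mice, on few cells on day 14 (91 and 130 macrophage-like) and on none to compare on day 0, and depth per cell differed between the diets. Low members in control cells of day 14 rest on 56 to 213 UMIs.

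Over all cells the *Lgals3* ratio of 5.69 on day 0 became 0.885 with all columns, 3.52 as a mean over cells of CPM, 1.63 as a difference of mean log2 values, 4.92 after thinning to 1000 UMIs and 1.73 under the study cell filter. The day 5 ratio of 3.02 became 3.22, 3.46, 9.83, 3.70 and 3.24 in that order, 4.03 with median-of-ratios scaling and 2.95 without cells scoring for another class. The day 14 ratio of 4.56 became 2.06, 3.46, 5.13, 3.41 and 2.34, 4.85 with median-of-ratios scaling and 4.27 with the smallest value set to 1 UMI. In macrophage-like cells the *Lgals3* ratio of 1.93 on day 5 became 1.79 with all columns, 2.60 as a difference of mean log2 values, 2.36 with median-of-ratios scaling, 2.09 after thinning, 1.83 with the stricter margin, 2.65 in Leiden clusters and 1.98 without cells scoring for another class. That of 1.79 on day 14 became 1.18 with all columns, 1.68 as a mean over cells of CPM, 4.17 as a difference of mean log2 values, 1.59 after thinning and 1.22 under the study cell filter.

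Without a minimum of UMIs the genes at least 2-fold higher and lower over all cells on day 0 went from 504 and 439 to 818 and 684. In macrophage-like cells those higher on day 5 went from 759 to 1669, and those higher and lower on day 14 from 590 and 405 to 2542 and 1815. Median-of-ratios scaling changed the day 5 counts over all cells from 447 higher and 2418 lower to 1120 and 1105, and those in macrophage-like cells from 759 and 1663 to 1181 and 938.

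Reversed values with all columns were *Lgals1* at 0.900 in T/NK-like cells on day 5, at 1.65 and 1.06 in FAP-like cells on days 0 and 14 and at 1.19 over all cells on day 0, *Gpnmb* at 0.926 in FAP-like cells on day 5 and 1.16 over all cells on day 0, and *Fabp5* at 5.26 in FAP-like cells on day 0 and 1.16 in C1q-positive cells on day 5. Under the study cell filter they were *Lgals3* at 0.420 and 0.735 in endothelial-like cells on days 5 and 14, *Lgals1* at 1.06 in FAP-like and 0.705 in endothelial-like cells on day 14, *Spp1* at 0.566 in FAP-like cells on day 14 and 0.405 over all cells on day 0, and *Fabp5* at 1.16 in C1q-positive cells on day 5. As differences of mean log2 values they were *Lgals1* at 1.87 in FAP-like cells on day 14, *Spp1* at 1.93 in FAP-like cells on day 5, 0.997 over all cells on day 0 and 2.39 in C1q-positive cells on day 5, *Gpnmb* at 1.98 and *Fabp5* at 2.55 in the latter, and *Fabp5* at 0.910 in endothelial-like and 0.945 in all cells on day 0. Without cells scoring for another class they were *Lgals3* at 0.757 in endothelial-like cells, *Spp1* at 0.823 in myogenic progenitor-like cells, and *Gpnmb* at 0.518 and *Fabp5* at 0.911 in FAP-like cells, all on day 5. Without cells holding a macrophage reference UMI, *Gpnmb* stood at 0.681 and *Fabp5* at 0.873 in FAP-like cells on day 5. Thinning gave 0.808 for *Lgals3* in myogenic progenitor-like cells on day 14 and 0.798 for *Fabp5* over all cells on day 0. Median-of-ratios scaling gave 1.03 for *Lgals1* in FAP-like cells on day 14 and 1.01 for *Fabp5* in C1q-positive cells on day 5. In Leiden clusters *Spp1* on day 14 stood at 0.836 in FAP-like and 1.03 in glial-like cells. *Spp1* in macrophage-like cells on day 5 stood at 0.978 with the smallest value set to 1 UMI and at 0.957 with the stricter margin.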
